A study of Homo sapiens with 2 samples.

Results

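Nuclear regulators of the erythroid and megakaryocytic fates were followed in K562 cells with and without induction of a hairpin against BMI1, namely GATA1, GATA2, KLF1, TAL1, GFI1B, NFE2, FLI1, RUNX1, MYB and HEMGN. They were chosen by name, as the probe sets whose platform annotation gives 1 of these symbols. All 10 were found, each with 1 probe set of its own, among 18417 genes with such a probe set. K562, a line from a human chronic myeloid leukaemia with the BCR-ABL fusion, can be pushed towards either fate. Both cultures held an inducible shBmi1 construct against BMI1, a Polycomb repressor subunit. One culture was incubated with doxycycline for 96 h and its control with none. Each condition had 1 culture and 1 array, no culture had doxycycline without the hairpin, and the labels do not say how long the control was grown or which promoter drives the hairpin.

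Erythroid cells and megakaryocytes arise from a common progenitor, and the nuclear factors studied here act in overlapping sets at each step. GATA1 works with TAL1, LMO2 and LDB1 at erythroid and megakaryocytic genes, and replaces GATA2 at many sites as progenitors mature. KLF1 and FLI1 oppose each other at the branch, KLF1 driving the erythroid and FLI1 the megakaryocytic programme. MYB is a progenitor factor that maintains proliferation and favours the erythroid branch over the megakaryocytic one.

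Values are the deposited log2 RMA values, and a difference is the log2 value with doxycycline minus that without. With 1 array per condition there is no replicate error and no p-value. Each difference is therefore set beside the robust standard deviation (SD) of the differences of the 500 genes nearest to it in mean level. This spread describes these 2 arrays and not the variation between cultures. The regulators and gene lists were chosen with earlier results of these data known, so ranks and neighbour counts only describe the genes. A gene was compared where its higher value reached a floor of 6, which kept 13471 genes and all 10 regulators. The BMI1 probe set, which the annotation also gives to COMMD3-BMI1, read 10.00 with doxycycline and 10.84 without, or -0.84, so the target of the hairpin was lower in the culture labelled as induced. Among erythroid marker genes, TFRC, the transferrin receptor gene, had 11.99 with doxycycline and 12.08 without, and RHAG, a Rh-associated glycoprotein gene, had 11.91 with doxycycline and 12.05 without. Both stayed well above the floor in both cultures, as did HBE1, an embryonic globin gene. These are the brightest of the 26 erythroid target genes measured. Of those 26, AHSP and BCL11A lay under the floor in both cultures. BCAM, at 6.09 with doxycycline and 6.12 without, lay close to it. In bulk RNA, fewer cells of a type and less RNA per cell cannot be told apart.

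The regulators did not move as a block. HEMGN was lower and FLI1 higher with doxycycline, each by just under 1.5-fold, KLF1 was lower by 1.21-fold, and the other 7 differed by less than 1.2-fold. Of the 10, 8 were lower and 2 higher, with a median difference of -0.13, against a median of 0.0018 over all 13471 genes, of which 48.8% were lower. At 1.2-fold, 2 of the 10 were lower, where 4.05% of all genes were, and 1 was higher, where 6.04% were. At 1.5-fold, 0 were lower and 0 higher, against 0.111% and 0.364% of all genes. GATA1, TAL1, KLF1 and HEMGN, all with established erythroid roles, were lower in 4 of 4 cases with a median of -0.23, and NFE2 and GFI1B in 2 of 2 with a median of -0.20. Of the 3 grouped as megakaryocytic, GATA2 and RUNX1 were also lower and FLI1 higher, with a median of -0.06.

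**Figure D1:**
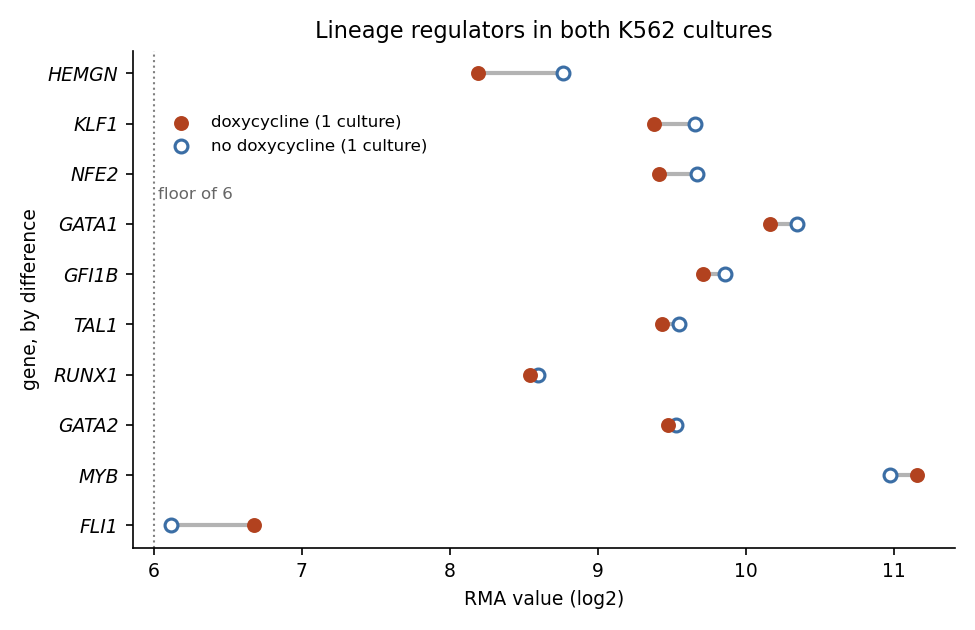
RMA value (log2, horizontal axis) of each regulator in the doxycycline culture (filled points) and in the culture without doxycycline (open points), 1 array each, with genes ordered by their difference. HEMGN lies 0.57 lower and FLI1 0.57 higher with doxycycline, and FLI1 is the only regulator near the floor of 6 (dotted line).

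The promoters of HEMGN and KLF1, the 2 erythroid regulators past 1.2-fold, are shown because GATA factors are known to act on both genes. The windows are RefSeq promoters on GRCh38.p14, 250 bases before to 50 after a start site, on the gene's own strand, and capitals mark GATA motifs (AGATAA or AGATAG or TGATAA or TGATAG on either strand). HEMGN has 2 start sites in the table, at chr9:97944803-97945102 and chr9:97938123-97938422, both on the minus strand, and KLF1 has 1, at chr19:12887152-12887451 on the minus strand.
HEMGN upstream start: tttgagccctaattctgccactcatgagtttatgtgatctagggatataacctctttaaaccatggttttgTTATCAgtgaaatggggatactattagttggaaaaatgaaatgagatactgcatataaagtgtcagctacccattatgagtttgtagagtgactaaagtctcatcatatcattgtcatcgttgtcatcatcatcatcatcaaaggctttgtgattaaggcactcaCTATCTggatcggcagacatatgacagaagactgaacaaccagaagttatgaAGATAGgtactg
HEMGN downstream start: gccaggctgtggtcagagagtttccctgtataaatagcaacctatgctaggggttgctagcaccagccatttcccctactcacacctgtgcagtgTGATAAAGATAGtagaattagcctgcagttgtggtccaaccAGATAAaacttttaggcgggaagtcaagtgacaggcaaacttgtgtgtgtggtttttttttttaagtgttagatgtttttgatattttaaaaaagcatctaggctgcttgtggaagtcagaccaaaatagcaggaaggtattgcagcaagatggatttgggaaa
KLF1: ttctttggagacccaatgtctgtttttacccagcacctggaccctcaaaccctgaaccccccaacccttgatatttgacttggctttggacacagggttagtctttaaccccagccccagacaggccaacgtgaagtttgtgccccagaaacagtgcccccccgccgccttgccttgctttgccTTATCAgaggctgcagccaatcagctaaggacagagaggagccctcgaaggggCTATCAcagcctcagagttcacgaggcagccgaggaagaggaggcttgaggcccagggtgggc

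Each HEMGN window held 3 GATA motifs, and in the downstream one TGATAA and AGATAG stand end to end, starting 155 and 149 bases before the start site. The KLF1 window held 2, starting 66 and 13 bases before the start site, both on the opposite strand. Promoter windows were held for 8 of the 10 regulators, 12 windows in all, without FLI1 and NFE2. A GATA motif stood in 6 of these 12 windows, belonging to HEMGN, KLF1, GFI1B and TAL1, against 25% of all 35116 windows in the table. The ETS motif, searched as CCGGAA or AGGAAG, stood in 8 of the 12 windows against 45.4% of all. The CACC element CCACACCC, the form KLF1 is known to bind, stood in 0 of the 12 against 3.28% of all, and the GC box CCGCCC stood in 6 against 45% of all. These matches describe the letters in the windows only.

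HEMGN encodes hemogen, a nuclear protein of erythroid cells whose gene GATA1 is known to activate. It read 8.19 with doxycycline and 8.76 without, which is -0.57 or 1.49-fold lower. The spread of the genes nearest in level was 0.15, and 3 of those 500 differed as far in either direction. HEMGN held the 19th lowest difference of the 13471 genes, the furthest from 0 of the 10 regulators.

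KLF1, the zinc finger activator of adult globin and red cell membrane genes, stood at 9.38 with doxycycline and 9.66 without. The difference was -0.28, or 1.21-fold lower, against a spread of 0.14 among its neighbours in level, 22 of which differed as far in either direction. GATA1, the central activator of both lineages, had 10.16 with doxycycline and 10.34 without, which is -0.18 against a spread of 0.11. TAL1, the basic helix-loop-helix partner of GATA1, had 9.44 with doxycycline and 9.55 without, a difference of -0.11 that lay inside the spread of 0.14. GATA1 and TAL1 were thus closer to 0 than KLF1 and HEMGN, and 77 neighbours of GATA1 and 216 of TAL1 differed as far in either direction.

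NFE2 and GFI1B act in both lineages. NFE2, the subunit that pairs with small MAF proteins at globin and platelet genes, stood at 9.42 with doxycycline and 9.67 without. Its difference of -0.25, or 1.19-fold lower, lay just short of the 1.2-fold size (0.26 on the log2 scale), with a spread of 0.14. GFI1B, a zinc finger repressor that recruits KDM1A and RCOR1, had 9.71 with doxycycline and 9.86 without, a difference of -0.15 against a spread of 0.13. Both were lower, and 38 neighbours of NFE2 and 113 of GFI1B differed as far in either direction.

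FLI1, the ETS factor of megakaryocytes, was the regulator furthest above 0. It read 6.68 with doxycycline and 6.11 without, which is 0.57 or 1.48-fold higher and the 68th highest of all genes compared. Its value without doxycycline was close to the floor, where the spread was wider, at 0.19, and 4 of its 500 neighbours differed as far. Detection calls were not used here, so it is not shown that FLI1 was expressed in either culture.

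The other factors grouped here as megakaryocytic, RUNX1 and GATA2, were slightly lower. GATA1, NFE2 and GFI1B, which act in both lineages, differed by -0.18, -0.25 and -0.15. RUNX1, which with CBFB activates platelet genes, had 8.54 with doxycycline and 8.60 without, a difference of -0.06. GATA2, the progenitor GATA factor that persists in early megakaryocytes, had 9.47 with doxycycline and 9.53 without, also -0.06. Both differences were less than the spread of genes of like level (0.15 and 0.14). The shift between the 2 GATA factors, GATA1 minus GATA2, was -0.13, within the combined spread of 0.18.

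MYB was the second of the 2 higher regulators. It read 11.16 with doxycycline and 10.98 without, which is 0.18 or 1.14-fold higher, against a spread of 0.12. Of its neighbours in level, 61 of 500 differed as far in either direction.

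**Figure D2:**
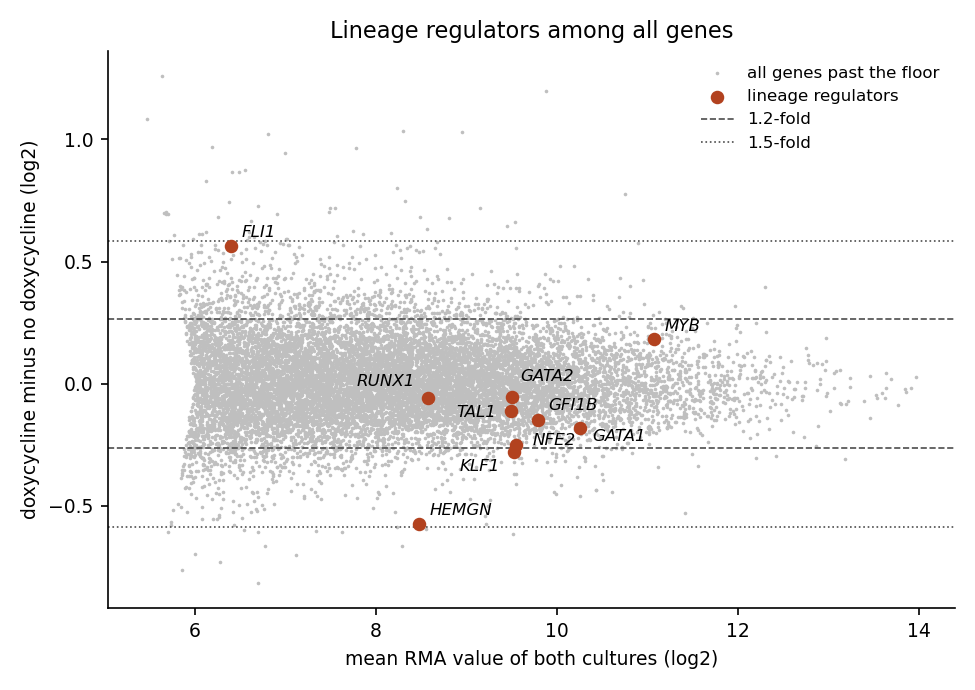
Difference with doxycycline minus without (log2, vertical axis) against the mean RMA value of both cultures (log2, horizontal axis) for all 13471 genes past the floor (grey) and the 10 regulators (red), with dashed lines at 1.2-fold and dotted lines at 1.5-fold. HEMGN and FLI1 lie at the lower and upper edge of the cloud just inside 1.5-fold, KLF1 lies just past 1.2-fold, and the remaining 7 lie within it.

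The contrast between KLF1 and FLI1 joins both ends of the branch. KLF1 differed by -0.28 and FLI1 by 0.57, so KLF1 minus FLI1 came to -0.85, a ratio 1.80-fold lower with doxycycline than without. The spreads of genes near each in level combine to 0.23. FLI1 made up 66.9% of this contrast, and its probe set was the one near the floor.

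Of 8 genes for partners of the GATA1 and TAL1 complex, 6 were lower, with a median of -0.10, and 0 reached 1.2-fold, a size that 6.04% of all genes passed upwards and 4.05% downwards. CBFA2T3, a corepressor held in the complex, differed by -0.23, LDB1, the bridging protein, by -0.14, and SSBP3, which stabilises LDB1, by 0.14. LMO2, which joins TAL1 to GATA factors, had 7.62 with doxycycline and 7.71 without. Among the 10 measured of 11 genes for partners of the other regulators, 6 were lower and 0 reached 1.2-fold, with a median of -0.02. CBFB, the RUNX1 partner, differed by 0.20, RCOR1, a GFI1B corepressor, by -0.14, and EP300, an acetyltransferase, by -0.09.

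Relatives of the regulators were measured for the same families. Of 12 past the floor, 7 were higher, 5 lower and 1 at least 1.2-fold higher, with a median of 0.04, where 6.04% of all genes were that much higher. That gene was ETS1, an ETS factor like FLI1, which read 7.86 with doxycycline and 7.50 without, or 0.35 beside a spread of 0.15. GATA3, counted among the 7 higher, read 6.12 with doxycycline and 5.97 without, so it passed the floor only through the doxycycline culture. RUNX2 differed by 0.23 and KLF3, a repressor that KLF1 activates, by -0.18. Of 9 other blood cell fate regulators past the floor, 7 were lower, 0 reached 1.2-fold and the median was -0.11. CEBPE, a granulocytic factor, differed by -0.24 and NFIA, which favours erythroid over granulocytic fate, by 0.22.

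Known erythroid target genes were mostly lower and only globin genes among them passed 1.2-fold. Of 24 past the floor, 18 were lower, 5 higher and 1, RHD, was equal in both cultures, where 48.8% of all genes were lower. RHD is close in sequence to RHCE, and HBB to HBD, so their values are uncertain. The median was -0.10, with 3 at least 1.2-fold lower and 0 higher, against 4.05% and 6.04% of all genes. Without HBB, which passed the floor only through the control culture, 2 of 23 were at least 1.2-fold lower and the median was -0.09. HBZ, an embryonic alpha-type globin gene, read 10.38 with doxycycline and 10.83 without, which is -0.44, and its other probe set differed by -0.65. HBE1, its beta-type counterpart, had 13.03 with doxycycline and 13.34 without, a difference of -0.31. HBB, the adult beta globin gene and a classical KLF1 target, had 5.95 with doxycycline and 6.42 without. Some targets went the other way without reaching 1.2-fold: ALAS2, the erythroid enzyme that starts haem synthesis and a GATA1 target, differed by 0.22, and SLC4A1, the band 3 anion exchanger gene, by 0.20.

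Megakaryocytic target genes went both ways. Of 13 past the floor, 8 were higher and 5 lower, with a median of 0.05, and 1 was at least 1.5-fold higher, where 0.364% of all genes were. That gene was RAB27B, a RAB GTPase of platelet granules known as an NFE2 target, at 9.14 with doxycycline and 8.46 without, or 1.60-fold higher. Its difference of 0.68 was matched by 0 of its 500 neighbours, and its sign was opposite to that of NFE2. None of the other genes of the list past the floor reached 1.2-fold. The list was chosen with earlier results of these data known, so the share and the neighbour count only describe RAB27B. ITGA2B, the platelet integrin gene, differed by 0.13, TBXAS1, the thromboxane synthase gene, by 0.20, and GP5, a platelet glycoprotein gene, by -0.21. TUBB1, the platelet tubulin gene and another NFE2 target, had 7.96 with doxycycline and 8.14 without. A further 7 of the 20 measured, among them PF4 and PPBP, lay under the floor in both cultures. GP1BB, a platelet glycoprotein gene, was left out of these counts because its probe sets also carry other symbols. Those probe sets differed by -0.16, -0.18 and -0.15.

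Among the progenitor genes past the floor, only KIT passed 1.2-fold, where 6.04% of all genes were that much higher. This receptor gene, activated by GATA2 and MYB and repressed by GATA1 during maturation, read 8.97 with doxycycline and 8.45 without, which is 0.53 or 1.44-fold higher, and 2 of its 500 neighbours differed as far. As for RAB27B, the list was chosen with earlier results known, so that count only describes KIT. The other 5 of the 6 progenitor genes past the floor stayed short of 1.2-fold, with MYC at -0.17 and MEIS1 at 0.12. Of the 6, 4 were lower and 2 higher. CD34, FLT3 and PROM1 lay under the floor in both cultures. The list had a median of -0.06.

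**Figure D3:**
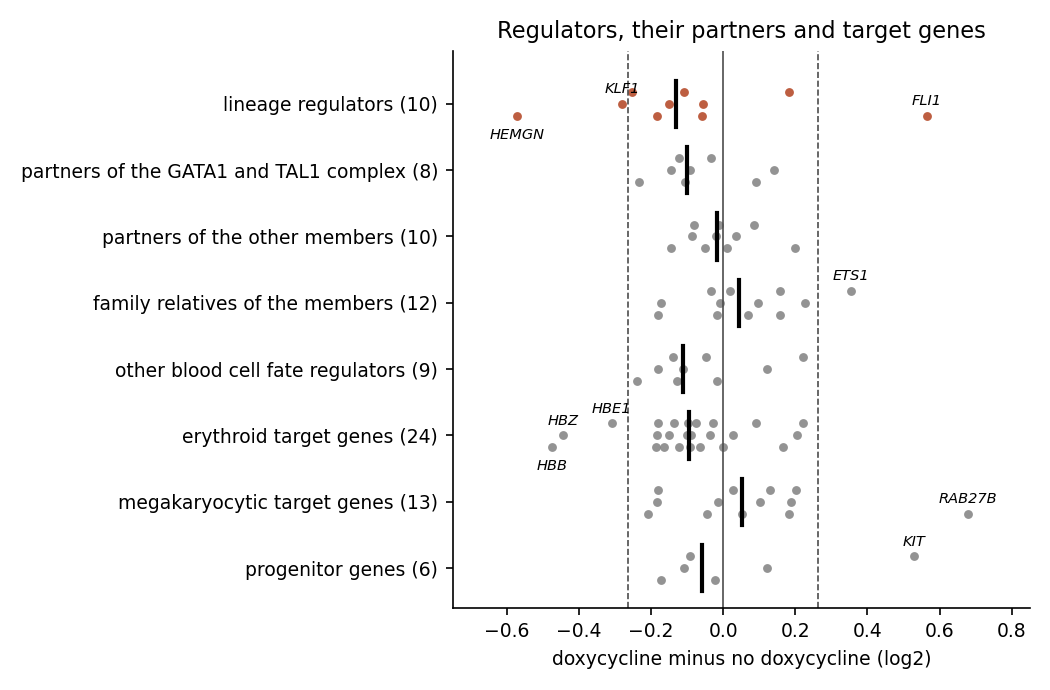
Difference with doxycycline minus without (log2, horizontal axis) of each gene past the floor, by list, with the number of genes in parentheses, a black bar at the list's median and dashed lines at 1.2-fold. The regulators (red) have a median of -0.13, the erythroid target genes one of -0.10 and the megakaryocytic target genes one of 0.05, and the genes past 1.2-fold are named.

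Markers of other cells were read beside these lists. Of 8 granulocyte and monocyte markers past the floor, 1 was at least 1.2-fold lower and 1 higher, against 4.05% and 6.04% of all genes. These were ELANE, which differed by -0.33, and LYZ, by 0.28. S100A9 differed by 0.22, and the mean log2 value of the 8 was 7.11 with doxycycline and 7.08 without. The 5 T and NK cell markers past the floor averaged 6.72 with doxycycline and 6.81 without, with ZAP70 at -0.24, LCK at -0.11 and CD3D at -0.08. The 4 B cell markers past the floor averaged 6.47 with doxycycline and 6.51 without, with BLK at 0.26, CD79A at -0.25 and PAX5 at -0.17. In these 2 lists CD3E, CD3G, CD2, CD8A, KLRD1, MS4A1 and CD22 lay under the floor in both cultures, whereas CD3D, CD5, LCK, ZAP70, NKG7, CD79A, CD79B, PAX5 and BLK reached it in both. The 7 fibroblast markers past the floor averaged 7.24 with doxycycline and 7.13 without. Of these, 1 was at least 1.2-fold higher and 0 lower, against 6.04% and 4.05% of all genes. That gene was COL6A3, at 0.52, with FN1 at 0.24 and PDGFRB at 0.18. Both samples were cultures of the K562 line. Detection calls were not used, so a value past the floor does not show that a marker was expressed. Any part of other cells in the differences of the regulators was not tested.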

How the data were processed

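Total RNA of both K562 cultures (0.3 µg each, integrity number 10) was biotin-labelled and put on 1 Affymetrix array each, per the labels' protocols. Per the submitters' processing notes, the authors obtained the deposited log2 values by RMA in Affymetrix Expression Console 1.1.1. The base was inferred from RMA and from the range, 1.61 to 14.6. RMA narrows differences of dim probe sets and removes a shift common to all genes. The array named in the design text differs from the whole-transcript platform to which the probe sets belong. Sources used here do not say which arrays were normalized together, nor the genome build.

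Of 33297 probe sets, 19460 had 1 symbol, 1754 several and 12083 none here. Symbols were updated by Entrez ID to RefSeq (19429 matched). A gene took its probe set with the highest mean. Regulators and lists were chosen with earlier results of these data known. Named were all regulators, BMI1, and of each list the genes past 1.2-fold and the 3 furthest from 0, with further partners or targets. The robust SD was 1.4826 times the median absolute deviation. Steps were tested on simulated data, with changes larger than those of the regulators and at levels above that of FLI1. How well differences as small as theirs are recovered was not tested. The number of arrays limits precision. Protein sequences were not used here. Python 3.11.15, numpy 2.4.6, pandas 2.3.3 and statsmodels 0.14.6 were used.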

Additional observations from a re-analysis of the deposited data

How the results depend on the processing

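Each regulator has 1 probe set, so averaging over probe sets and floors could not change its own difference. Centring, removal of a loess trend with level and quantile normalization, the 3 alternatives that could, gave -0.58 for HEMGN in each, -0.29 to -0.27 for KLF1, 0.55 to 0.57 for FLI1 and -0.85 to -0.84 for KLF1 minus FLI1. The median of the regulators lay between -0.15 and -0.13 over the 5 alternatives that changed it. Floors of 7 and 8 dropped FLI1, which left 0 regulators at least 1.2-fold higher. With each sample centred on its median, 3 regulators were at least 1.2-fold lower. The background counts followed the floor. With no floor, 77 genes were at least 1.5-fold higher and 66 lower, and 1343 at least 1.2-fold higher and 1103 lower. A floor of 5 gave 32 genes at least 1.5-fold lower. A floor of 7 gave 26 higher and 9 lower at 1.5-fold, and 317 lower at 1.2-fold. A floor of 8 gave 16 higher and 4 lower at 1.5-fold, and 326 higher and 179 lower at 1.2-fold. With 1 array per condition, no replicate could be left out, and FLI1 and HBB are read close to the floor.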
